A study of Mus musculus with 4 samples.

Results

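The collagens and the enzymes that modify them were compared between NSCL61-sox11, a mouse line that expresses the transcription factor Sox11, and its parent line NSCL61. The members are all genes whose symbol is Col, a number, the letter a and a number, plus the named prolyl and lysyl hydroxylases, lysyl oxidases and helper proteins, as the array annotation names them. Of 18193 genes with a probe set of their own on the array, 56 are members: 42 collagen genes and 14 modifying enzymes or helpers. Col6a6, Col21a1, Col28a1 and Loxl2 have no probe set naming them alone and were not analysed here; for Loxl2, 2 probe sets name it together with Gm21451.

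Both lines are p53-/- neural stem cells of strain C57BL/6, prepared from the telencephalon of E14.5 embryos and described in the labels as resembling glioma-initiating cells. They were grown as floating spheres without serum, in a medium with insulin, forskolin, PDGF and bFGF. There were 2 samples of NSCL61-sox11 and 2 of NSCL61, each hybridised to its own Affymetrix M430_2 array. According to the submitters' design text, NSCL61-sox11 had lost its tumorigenicity, and the question was what sets its expression apart from that of its parent. Each genotype is represented by 1 line, and nothing says that its samples were separate cultures, so p-values reflect only how far these arrays spread, and that spread may be technical.

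Collagens are secreted proteins whose chains wind around each other in a long helix built on glycine repeats. Fibrillar collagens form the banded fibres of connective tissue, fibril-associated collagens decorate them, collagen IV forms the network of basement membranes, and collagen VI forms beaded filaments around cells. In the endoplasmic reticulum, prolyl 4-hydroxylases stabilise the helix, prolyl 3-hydroxylases and lysyl hydroxylases modify further residues, and the chaperone Serpinh1 (Hsp47) holds the helix until export. Outside the cell, lysyl oxidases start the cross-linking that makes the fibres stiff. In brain, most fibrillar collagen lies in meninges and vessel walls, while collagen IV lies in vascular and pial basement membranes.

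The levels are the authors' processed values, read as log2 (1 unit is a factor of 2), and differences are NSCL61-sox11 minus NSCL61. Probe sets differ in binding, so a level is compared only with the same gene's level on another array. Probe sets were tested with limma across the 27022 brightest ones, 60% of all, with mean levels of at least 5.15, and a gene passed the test at a Benjamini-Hochberg adjusted p under 0.05. The exact permutation test of 2 arrays against 2 cannot go below p = 0.333. Sox11 itself, the check of the labels, was at 7.74 and 7.97 in NSCL61-sox11 against 5.09 and 4.82 in NSCL61. Its NSCL61 levels lay under 5.15, so this probe set entered the test through its NSCL61-sox11 levels. Sox11 was higher on 6 of 6 probe sets, by 0.38 to 2.90, some of them below the level filter. Of 8 neural stem cell markers, Nes, Sox2, Vim, Msi1 and Notch1 were above the level filter and Fabp7, Prom1 and Olig2 below it. Sox2 fell 3.24-fold and Vim 1.16-fold in NSCL61-sox11, while Notch1 (0.54), Nes (0.05) and Msi1 (-0.08) did not pass. That was 40% of the 5 tested called, against 19.2% of all genes. The Vim call was lost when NSCL61 array 1 or 2 was left out (limma adjusted p = 0.14 and 0.19).

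The members that rose at least 2-fold in NSCL61-sox11 were the fibrillar genes Col1a1, Col1a2 and Col11a1, the collagen VI genes Col6a1 and Col6a2, the fibril-associated gene Col12a1, the lysyl oxidase genes Lox, Loxl1 and Loxl4, and the prolyl hydroxylase genes P4ha2, P4ha3 and P3h2, while the basement membrane chain gene Col4a6 and the lysyl hydroxylase gene Plod2 were the members that fell. Above the level filter were 41 members, and 15, all collagens, lay below it. Of the 41, 19 rose, 2 fell and 20 did not pass the test. Among all 13084 genes tested, 19.2% passed, 10% upwards and 9.19% downwards. The 27 collagen genes tested comprised 10 that rose, 1 that fell and 16 that did not pass (40.7% called), with a median log2 difference of 0.11, against -0.02 over all genes. Of 14 enzyme and helper genes, 9 rose, 1 fell and 4 did not pass (71.4% called), with a median of 0.39. At least 2-fold rises were called for 6 collagens and 6 enzymes, against 3.18% of all genes. A 2-fold fall was called for no member, near the 1.3% of all genes, and Col4a6 lay just short of it (-0.998).

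Those counts rest on few arrays. Without NSCL61 array 1, 5 collagens and 6 enzymes were called, against 6.94% of all genes, and without NSCL61 array 2, 7 collagens and 6 enzymes, against 7.21%. Scaling to the poly-A controls put every difference 0.43 lower. Then 4 collagens rose and 2 fell, and 6 enzymes rose and 1 fell, with 9.35% of all genes called (279 up, 945 down). Scaling to the hybridisation controls put every difference 0.22 lower. Then 9 collagens rose and 3 fell, and 6 enzymes rose and 1 fell, with 23.2% of all genes called (702 up, 2336 down). Under both scalings the moderated degrees of freedom were 54044, against 6.36 on the deposited scale, so a gene's own spread no longer entered its test. Directions below are on the deposited scale. In these bulk samples, fewer cells of a type and less RNA per cell cannot be told apart.

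**Figure D1:**
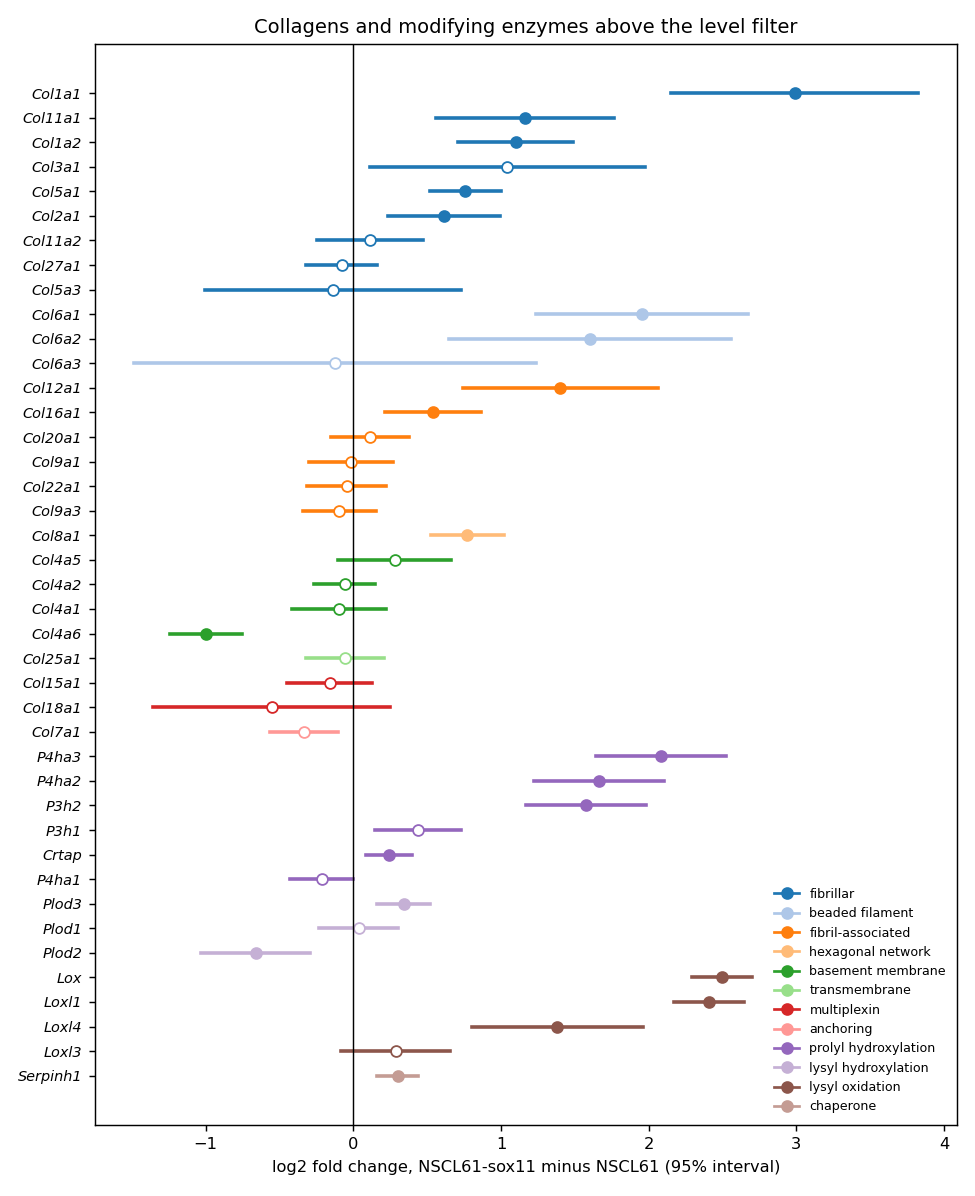
Log2 difference, NSCL61-sox11 minus NSCL61, of the 41 collagen and enzyme genes above the level filter, ordered by class (colours); bars are limma's 95% intervals and filled points passed the test. The lysyl oxidase genes Lox and Loxl1 have narrow intervals far above 0, while the interval of Col6a3 runs from -1.48 to 1.24.

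Col1a1 and Col1a2 encode the chains of collagen I, the main protein of connective tissue fibres. Col1a1 was at 8.51 and 9.61 in NSCL61-sox11 against 5.84 and 6.31 in NSCL61. Both NSCL61-sox11 arrays were far above both NSCL61 arrays, although they also lay 1.10 apart from each other. The rise was 7.93-fold, a log2 difference of 2.99 (SE 0.35, limma adjusted p = 0.0032), and the other Col1a1 probe set rose by 1.67 (limma adjusted p = 0.013). Col1a2 was at 7.43 and 7.36 in NSCL61-sox11 against 6.06 and 6.52 in NSCL61, a rise of 2.14-fold (limma adjusted p = 0.0072). The groups did not overlap for either chain, which was the case for 62.2% of all genes tested. On each array, the Col1a1 value minus the Col1a2 value was 1.09 and 2.25 in NSCL61-sox11 and -0.22 and -0.21 in NSCL61. On these probe sets the rises thus differed by 1.89 (exact permutation p = 0.333, the smallest possible). The size depended on the probe set read, since the other Col1a1 probe set rose by only 1.67. Further Col1a2 probe sets, below the level filter, differed by 0.75 and -0.10. Col1a2 lost its call with poly-A scaling (0.67, limma adjusted p = 0.17).

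Col3a1, whose product is laid into the same fibrils as collagen I, was at 10.16 and 11.22 in NSCL61-sox11 against 9.22 and 10.07 in NSCL61. The arrays did not overlap, but NSCL61-sox11 array 1 and NSCL61 array 2 lay only 0.09 apart. Its log2 difference of 1.04 (95% interval 0.11 to 1.98) did not pass (limma adjusted p = 0.12), nor did that of its other probe set (1.42, limma adjusted p = 0.093). Without NSCL61-sox11 array 1 it was 1.57 and passed (limma adjusted p = 0.0093).

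Collagens V and XI are minor fibrillar collagens found inside larger fibrils. Col5a1 was at 10.99 and 11.22 in NSCL61-sox11 and at 10.27 and 10.42 in NSCL61, a rise of 1.69-fold (limma adjusted p = 0.0050) that its other probe sets also showed (0.85 and 0.83, limma adjusted p = 0.0038 and 0.0027). Without NSCL61 array 1 it was just short of the threshold (0.69, limma adjusted p = 0.050055), and with poly-A scaling well short (0.33, adjusted p = 0.36). Col5a2 was below the level filter at 5.13 and 5.53 in NSCL61-sox11 and 4.82 and 4.12 in NSCL61 (0.86, limma adjusted p = 0.067 in a fit of all probe sets). The ranges of Col5a3 overlapped, at 6.17 and 7.02 in NSCL61-sox11 against 6.29 and 7.18 in NSCL61. Within both lines its array 2 was above its array 1 by more than the lines differed.

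Col11a1 was at 7.74 and 8.57 in NSCL61-sox11 against 6.998 and 6.988 in NSCL61. It rose 2.24-fold (limma adjusted p = 0.025), with a wider gap between the NSCL61-sox11 arrays than between those of NSCL61. Without NSCL61-sox11 array 2 the difference of 1.16 became 0.75, and leaving out NSCL61 array 1 or 2 ended the call (adjusted p = 0.11 and 0.12), as did poly-A scaling (adjusted p = 0.13). Its partner chain Col11a2 was at 5.66 and 5.70 in NSCL61-sox11 and 5.77 and 5.37 in NSCL61, with a 95% interval of -0.25 to 0.47. Col2a1, the cartilage fibril gene whose product can also serve as a chain of collagen XI, was at 6.64 and 7.09 in NSCL61-sox11 against 6.27 and 6.24 in NSCL61. Its rise of 1.53-fold (limma adjusted p = 0.044) ended when NSCL61 array 1 or 2 was left out (adjusted p = 0.16 and 0.17), and leaving out NSCL61-sox11 array 2 turned 0.61 into 0.39 (adjusted p = 0.097). It also ended with either control scaling, without a level filter, with quantile normalization or without an intensity trend. Col27a1 differed by -0.08 and Col24a1 was below the filter at 2.75 to 2.92. In all, 5 of 9 fibrillar genes tested rose and none fell (55.6% called, against 19.2% of all genes).

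Collagen VI is assembled from the products of Col6a1, Col6a2 and a larger chain, usually that of Col6a3. Col6a1 was at 10.95 and 11.54 in NSCL61-sox11 against 8.87 and 9.71 in NSCL61, a rise of 3.87-fold (log2 difference 1.95, SE 0.30, limma adjusted p = 0.0081). Col6a2 was at 9.84 and 10.88 in NSCL61-sox11 and 8.30 and 9.22 in NSCL61, 3.04-fold higher (1.60, SE 0.40, limma adjusted p = 0.039). For both genes the lower NSCL61-sox11 array still lay above the higher NSCL61 array, by 1.24 for Col6a1 and 0.63 for Col6a2. Col6a3 behaved otherwise, with 7.19 and 8.88 in NSCL61-sox11 and 7.64 and 8.69 in NSCL61. The NSCL61-sox11 arrays of Col6a3 enclosed those of NSCL61, and its difference was -0.12 (95% interval -1.48 to 1.24, limma adjusted p = 0.91). The Col6a3 difference was 2.08 below that of Col6a1 (exact permutation p = 0.333, the smallest possible). The Col6a2 call ended when NSCL61 array 1 was left out (1.15, limma adjusted p = 0.18), without an intensity trend (adjusted p = 0.056) or with its probe sets averaged (adjusted p = 0.054). Col6a4 and Col6a5 lay below the filter.

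The stretches upstream of the annotated starts of Col6a1 and Col6a2 are shown because these chains rose together and lie on the same chromosome, with starts 102414 bases apart on the same strand. The Col1a2 stretch is shown beside them as that of a fibrillar gene that rose. They are the 250 bases before the start in RefSeq's annotation of mouse build GRCm38.p6: chr10:76726045-76726294 on the minus strand for Col6a1, chr10:76623631-76623880 on the minus strand for Col6a2 and chr6:4505368-4505617 on the plus strand for Col1a2. Where RefSeq lists several starts for a gene, the most upstream was used, here and for all start distances and motif counts. Capitals mark a CCAAT box (CCAAT or ATTGG) and GC boxes (GGGCGG or CCGCCC).
Col6a1: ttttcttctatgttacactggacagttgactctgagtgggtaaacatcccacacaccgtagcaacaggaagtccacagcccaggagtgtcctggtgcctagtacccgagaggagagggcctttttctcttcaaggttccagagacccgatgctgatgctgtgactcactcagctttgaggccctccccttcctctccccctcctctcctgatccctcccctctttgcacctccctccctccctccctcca
Col6a2: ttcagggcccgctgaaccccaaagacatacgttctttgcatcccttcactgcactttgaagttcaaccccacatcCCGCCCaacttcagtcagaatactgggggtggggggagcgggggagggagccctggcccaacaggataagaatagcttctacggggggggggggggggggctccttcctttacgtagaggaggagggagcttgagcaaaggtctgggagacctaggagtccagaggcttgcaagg
Col1a2: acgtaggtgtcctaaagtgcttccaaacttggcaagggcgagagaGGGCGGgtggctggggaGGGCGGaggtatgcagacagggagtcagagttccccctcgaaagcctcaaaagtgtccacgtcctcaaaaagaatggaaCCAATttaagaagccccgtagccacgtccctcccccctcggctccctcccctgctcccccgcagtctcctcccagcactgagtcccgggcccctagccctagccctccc
Col6a1 held neither motif, Col6a2 held 1 GC box, and Col1a2 held 1 CCAAT box and 2 GC boxes. These matches describe the letters only.

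**Figure D2:**
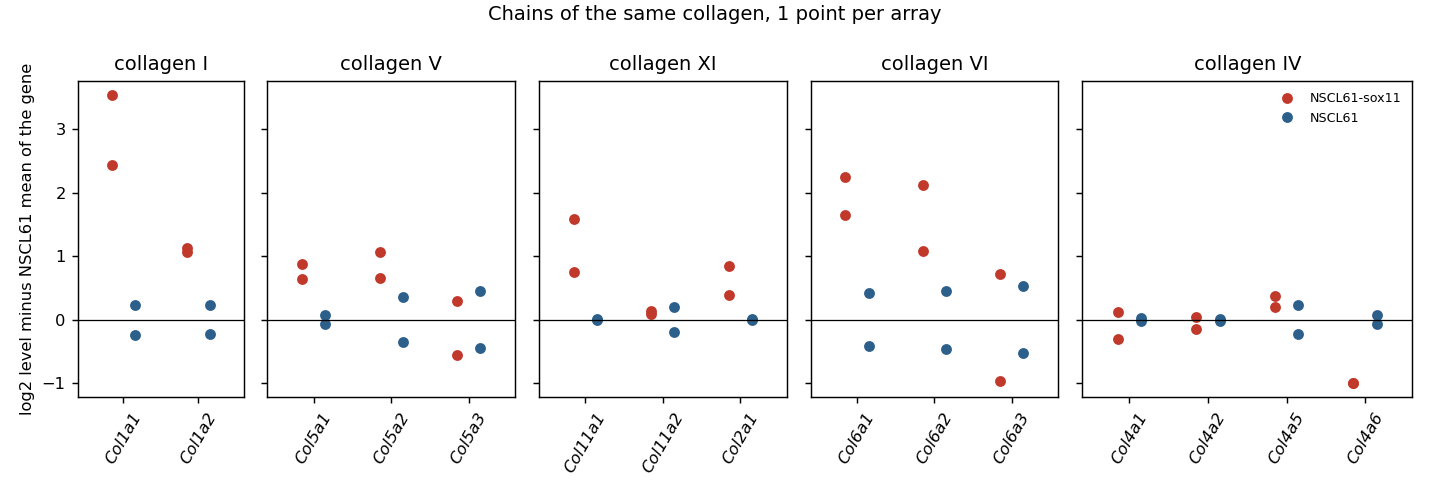
Log2 level of each array minus the NSCL61 mean of the same gene, for chains of collagens I, V, XI, VI and IV (red NSCL61-sox11, blue NSCL61, 2 arrays each, Col5a2 being below the level filter). Col6a1 and Col6a2 are separated between the lines while Col6a3 is not, and Col4a6 alone lies below its NSCL61 arrays among the collagen IV chains shown.

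Collagen IV showed no called rise, since 1 of its 4 chain genes tested fell and the other 3 missed the threshold. That was 25% called, near the 19.2% of all genes. Col4a1 and Col4a2 encode the chains of the common basement membrane network. Col4a1 was at 11.54 and 11.96 in NSCL61-sox11 against 11.82 and 11.86 in NSCL61, and Col4a2 at 10.68 and 10.86 against 10.85 and 10.81 in NSCL61. The groups overlapped for both, with 95% intervals of -0.41 to 0.22 for Col4a1 and -0.26 to 0.15 for Col4a2, although without NSCL61-sox11 array 2 Col4a1 was called lower (-0.31, limma adjusted p = 0.016). Col4a6 was at 6.49 on both NSCL61-sox11 arrays against 7.42 and 7.56 in NSCL61. It fell by just under 2-fold (log2 difference -0.998, SE 0.10, limma adjusted p = 0.0019), and its other probe set fell by 0.88 (limma adjusted p = 0.011). Col4a5, whose chain can pair with that of Col4a6, was at 9.41 and 9.59 in NSCL61-sox11 and 8.99 and 9.45 in NSCL61 (0.28, 95% interval -0.10 to 0.66, limma adjusted p = 0.29). The difference of Col4a6 was 1.28 below that of Col4a5 (exact permutation p = 0.333, the smallest possible). Col4a3 and Col4a4 lay below the filter.

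Col4a5 and Col4a6 are neighbours on the X chromosome that are read away from each other, as are Col4a1 and Col4a2 on chromosome 8. Their most upstream annotated starts lie 1343 bases apart for Col4a5 and Col4a6 and 21 bases apart for Col4a1 and Col4a2. The upstream stretches of Col4a5 and Col4a6 are shown because 1 of these neighbours was called and the other was not: chrX:141474077-141474326 on the minus strand for Col4a6 and chrX:141475169-141475418 on the plus strand for Col4a5 (GRCm38.p6, RefSeq, capitals as above).
Col4a6: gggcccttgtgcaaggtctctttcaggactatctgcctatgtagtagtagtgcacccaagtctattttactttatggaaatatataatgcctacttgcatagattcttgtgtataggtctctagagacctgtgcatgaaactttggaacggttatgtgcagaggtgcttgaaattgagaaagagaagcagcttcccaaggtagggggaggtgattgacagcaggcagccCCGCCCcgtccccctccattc
Col4a5: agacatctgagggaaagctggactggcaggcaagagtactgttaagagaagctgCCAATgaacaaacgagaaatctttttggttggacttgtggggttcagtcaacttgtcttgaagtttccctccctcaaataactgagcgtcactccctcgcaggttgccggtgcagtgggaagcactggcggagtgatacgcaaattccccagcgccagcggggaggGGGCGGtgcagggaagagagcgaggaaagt
Each held 1 GC box, and Col4a5 also held 1 CCAAT box, a motif found in 34.5% of such stretches of 27025 genes on either strand.

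Among the fibril-associated collagens, 2 of 6 tested rose and none fell (33.3% called, against 19.2% of all genes). Col12a1, which bridges fibrils, was at 8.01 and 8.89 in NSCL61-sox11 against 6.91 and 7.19 in NSCL61, a rise of 2.64-fold (limma adjusted p = 0.019). Another Col12a1 probe set was at 7.32 and 8.84 against 4.84 and 5.00 in NSCL61, a larger log2 difference of 3.16 (limma adjusted p = 0.0058). The NSCL61 levels of that probe set lay under 5.15, the lowest tested mean, so it entered the test through its NSCL61-sox11 levels. The mean of both tested probe sets gave 2.28. Further Col12a1 probe sets, below the level filter, differed by -0.10 and 0.07. The arrays of the lines were apart on both tested probe sets, and the size of the rise depended on which was read. Leaving out NSCL61 array 1 or 2 ended the call (1.26 and 1.54, adjusted p = 0.11 and 0.065). Col16a1 was at 8.24 and 8.47 in NSCL61-sox11 against 7.67 and 7.96 in NSCL61. Its rise of 1.45-fold (limma adjusted p = 0.041) ended when NSCL61 array 1, NSCL61 array 2 or NSCL61-sox11 array 2 was left out (adjusted p = 0.22, 0.064 and 0.098), and with either control scaling. The cartilage and other genes of this class, Col9a1, Col9a3, Col20a1 and Col22a1, differed by -0.09 to 0.11.

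Col8a1, a chain of the hexagonal network under some endothelia, was at 8.48 and 8.39 in NSCL61-sox11 against 7.75 and 7.58 in NSCL61, 1.71-fold higher (limma adjusted p = 0.0050). Its other probe sets differed by 0.44 (limma adjusted p = 0.040) and 0.19 (adjusted p = 0.44), the mean of its probe sets gave 0.47 (adjusted p = 0.034), and the call was lost with poly-A scaling (0.34, adjusted p = 0.39). Col7a1, which forms anchoring fibrils, was at 8.76 and 8.59 in NSCL61-sox11 and 9.03 and 8.98 in NSCL61 (-0.33, limma adjusted p = 0.062). The lines did not overlap, but the difference passed only in some alternatives, such as without NSCL61-sox11 array 1 (-0.41, adjusted p = 0.037). Col18a1, a basement membrane collagen whose end piece is endostatin, was at 7.87 and 8.73 in NSCL61-sox11 against 8.47 and 9.23 in NSCL61. Its arrays overlapped, and it did not pass (-0.55, limma adjusted p = 0.32), while it did when NSCL61-sox11 array 2 was left out (-0.98, adjusted p = 0.044) and with either control scaling (-0.98 and -0.77). Its relative Col15a1 and the transmembrane collagen Col25a1 differed by -0.16 and -0.06.

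The 15 collagens below the filter had representative levels of 2.75 to 5.53 on every array. They were Col4a3, Col4a4, Col5a2, Col6a4, Col6a5, Col8a2, Col9a2, Col10a1, Col13a1, Col14a1, Col17a1, Col19a1, Col23a1, Col24a1 and Col26a1. In the fit of all probe sets none of them was called, and the smallest adjusted p-values were 0.067 for Col5a2 and 0.083 for Col4a4.

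**Figure D3:**
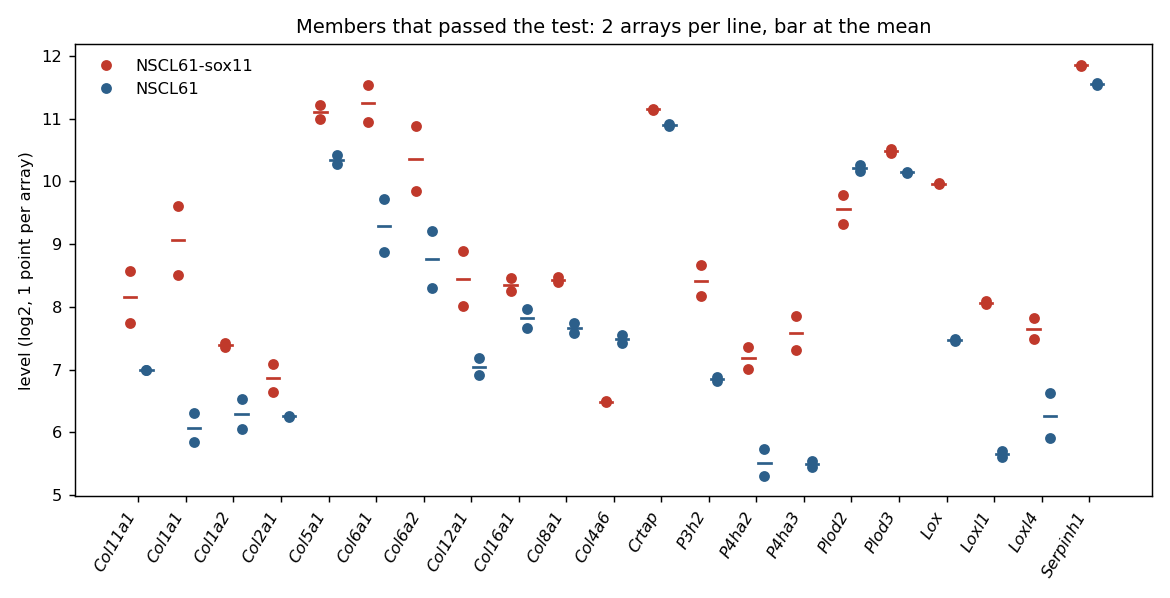
Level (log2) of the 21 genes that passed the test on each of the 2 NSCL61-sox11 arrays (red) and the 2 NSCL61 arrays (blue), with a bar at each mean. The arrays of a line nearly coincide for Lox, Loxl1 and Serpinh1 and lie up to 1.10 apart for Col1a1 in NSCL61-sox11.

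Lysyl oxidases were the enzyme class with the largest median difference (1.90), and 3 of 4 tested rose (75% called, against 19.2% of all genes). Lox, the founding member, was at 9.98 and 9.95 in NSCL61-sox11 against 7.45 and 7.48 in NSCL61. The arrays of each line lay within 0.03 of each other, and the lines were 5.64-fold apart (log2 difference 2.50, SE 0.08, limma adjusted p = 7.7e-05); another probe set gave 2.57. Loxl1, known for its part in elastic fibres, was at 8.04 and 8.09 in NSCL61-sox11 against 5.70 and 5.61 in NSCL61, a rise of 5.31-fold (limma adjusted p = 0.00010). Its other tested probe set did not follow, at 5.72 and 5.79 in NSCL61-sox11 and 5.79 and 5.71 in NSCL61 (0.01, limma adjusted p = 0.96), and the mean of both gave 1.21 (adjusted p = 0.0012). Loxl4 was at 7.82 and 7.48 in NSCL61-sox11 against 6.63 and 5.91 in NSCL61, a rise of 2.61-fold (limma adjusted p = 0.013), with 1.41 on its other probe set (adjusted p = 0.0027). Loxl3 overlapped, at 8.86 and 9.04 in NSCL61-sox11 and 8.45 and 8.87 in NSCL61 (0.29, 95% interval -0.08 to 0.66, limma adjusted p = 0.26).

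The catalytic subunits of prolyl 4-hydroxylase differed among themselves. P4ha3 was at 7.31 and 7.86 in NSCL61-sox11 against 5.45 and 5.55 in NSCL61, a rise of 4.24-fold (log2 difference 2.08, SE 0.18, limma adjusted p = 0.0011). P4ha2 was at 7.003 and 7.36 in NSCL61-sox11 against 5.31 and 5.73 in NSCL61, a rise of 3.17-fold (1.66, SE 0.18, limma adjusted p = 0.0026). For both genes the lines were separated by more than 1 log2 unit between their nearest arrays. P4ha1, the most widely expressed of these subunits, was at 8.64 and 8.72 in NSCL61-sox11 and 8.92 and 8.88 in NSCL61. It was lower by 0.21 without passing the test (limma adjusted p = 0.15); its other probe set passed (-0.36, adjusted p = 0.048), as did the mean of both (-0.29, adjusted p = 0.049). The beta subunit P4hb, a protein disulfide isomerase, differed by 0.14 (adjusted p = 0.21).

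P3h2, a prolyl 3-hydroxylase formerly named Leprel1 that acts on basement membrane collagen, was at 8.67 and 8.17 in NSCL61-sox11 against 6.82 and 6.87 in NSCL61, a rise of 2.98-fold (limma adjusted p = 0.0024). P3h1, which works in a complex with Crtap, was at 8.31 and 8.60 in NSCL61-sox11 and 8.003 and 8.03 in NSCL61. The lines did not overlap and the difference of 0.44 was just short of the threshold (limma adjusted p = 0.054), while the other probe set passed (0.65, adjusted p = 0.012), as did the difference without NSCL61-sox11 array 1 (0.59, adjusted p = 0.013). Crtap was at 11.13 and 11.16 in NSCL61-sox11 against 10.92 and 10.89 in NSCL61, 1.18-fold higher (limma adjusted p = 0.049). That call was lost without any of the 4 arrays in turn (adjusted p = 0.25 and 0.30 without NSCL61 array 1 or 2, 0.056 and 0.078 without NSCL61-sox11 array 1 or 2). With poly-A scaling the sign of Crtap turned (-0.19). In all, 4 of 6 genes of prolyl hydroxylation rose and none fell (66.7% called, against 19.2% of all genes).

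The upstream stretches of P4ha2 and P4ha3 are shown because these genes rose together while P4ha1 did not. In GRCm38.p6 they are chr11:54100674-54100923 on the plus strand for P4ha2 and chr7:100285270-100285519 on the plus strand for P4ha3 (RefSeq, capitals as above).
P4ha2: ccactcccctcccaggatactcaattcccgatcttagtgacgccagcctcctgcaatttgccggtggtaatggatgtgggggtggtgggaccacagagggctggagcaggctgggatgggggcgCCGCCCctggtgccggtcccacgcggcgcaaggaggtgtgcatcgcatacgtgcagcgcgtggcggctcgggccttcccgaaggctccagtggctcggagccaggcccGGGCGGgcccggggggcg
P4ha3: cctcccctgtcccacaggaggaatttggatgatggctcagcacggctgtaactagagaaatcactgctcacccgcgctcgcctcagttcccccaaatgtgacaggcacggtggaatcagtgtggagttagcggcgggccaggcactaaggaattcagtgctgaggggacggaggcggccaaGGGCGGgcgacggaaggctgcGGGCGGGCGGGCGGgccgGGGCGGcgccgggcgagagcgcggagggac
P4ha2 held 2 GC boxes and P4ha3 held 5, some of them overlapping, and neither held a CCAAT box. Upstream sequences were matched for 42 members, 31 of them tested. Of the 19 members that rose, Col1a1, Col2a1, Col12a1, Lox, Loxl1 and P3h2 had none, so the counts leave out several of the largest rises. GC boxes stood upstream of 10 of 13 members that rose and 11 of 17 that did not pass. The share was 33.0% over all 27025 genes with such a stretch. Unlike the members counted, those genes were not limited to genes on the array and above the level filter. A Sox core (ACAAAG or ACAATG, either strand) stood upstream of 0 of the 13 and 2 of the 17, against 25.4% of all. A CCAAT box stood upstream of 4 of the 13 and 8 of the 17, against 34.5% of all, and ACGTG (either strand) upstream of 5 and 2, against 16.5%. The TATAAA box stood upstream of 1 and 2, against 8.13%. No match says only that these letters are not in these 250 bases.

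Lysyl hydroxylases moved in both directions. Plod2, whose product hydroxylates the lysines of collagen ends from which cross-links form, was at 9.32 and 9.79 in NSCL61-sox11 against 10.16 and 10.26 in NSCL61. It fell 1.58-fold (log2 difference -0.66, SE 0.15, limma adjusted p = 0.032), and its other probe set fell by 0.76 (adjusted p = 0.014). Without NSCL61 array 1 or 2 the call was lost (adjusted p = 0.13 and 0.17), and without NSCL61-sox11 array 1 the difference was -0.43. Plod3, which also glycosylates hydroxylysine, was at 10.52 and 10.45 in NSCL61-sox11 against 10.16 and 10.13 in NSCL61, 1.27-fold higher (limma adjusted p = 0.026). Plod1, which acts on the helix, overlapped at 7.52 and 7.68 in NSCL61-sox11 and 7.49 and 7.64 in NSCL61 (0.04, 95% interval -0.23 to 0.30). The chaperone gene Serpinh1 was at 11.84 and 11.86 in NSCL61-sox11 against 11.56 and 11.54 in NSCL61, 1.23-fold higher (limma adjusted p = 0.018). The small rises of Plod3 and Serpinh1 turned sign with poly-A scaling (-0.09 and -0.13) and their calls ended when NSCL61 array 1 (adjusted p = 0.16 and 0.14) or NSCL61 array 2 (adjusted p = 0.19 and 0.17) was left out.

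**Figure D4:**
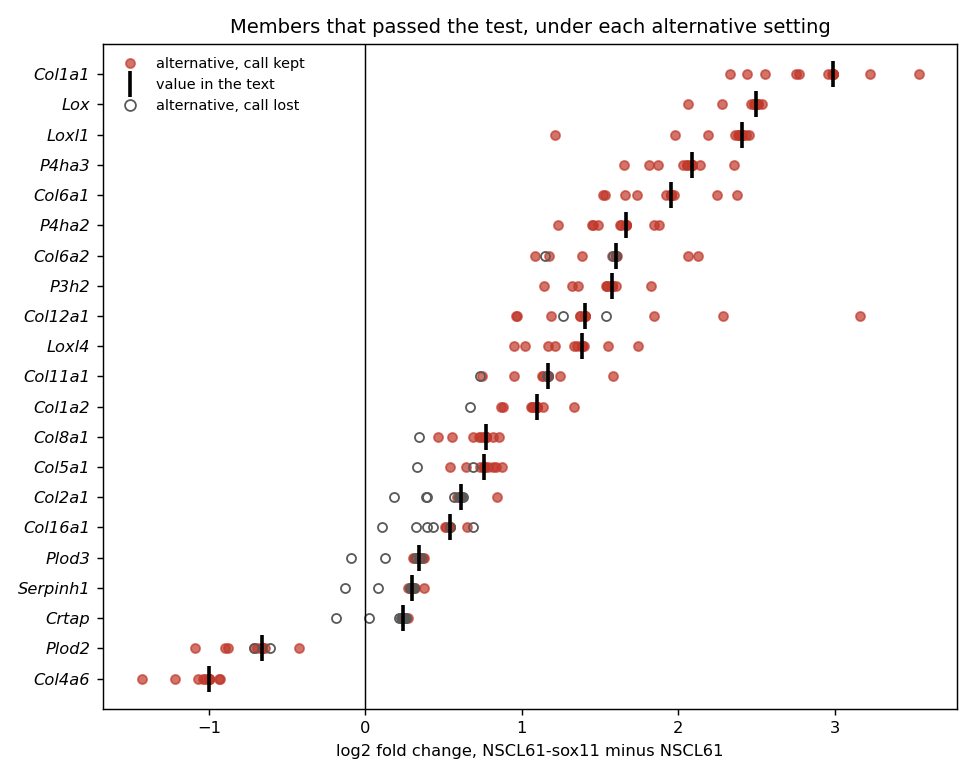
Log2 difference, NSCL61-sox11 minus NSCL61, of the 21 genes that passed the test, under each alternative setting (filled red where the call was kept, open where it was lost) and as given in the text (black bar). Col1a1, Lox, Loxl1, P4ha3, Col6a1, P4ha2, P3h2, Loxl4 and Col4a6 kept their call under each alternative that gave a value.

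The other genes of the collagen pathway were read from fixed lists. Of 12 genes of folding and sugar addition in the endoplasmic reticulum on the array, 2 rose, 1 fell and 9 did not pass. That was 25% called, near the 19.2% of all genes. The prolyl 3-hydroxylase family gene P3h3 rose 2.70-fold, with 6.80 and 6.89 in NSCL61-sox11 against 5.35 and 5.48 in NSCL61 (limma adjusted p = 0.00061). P3h4, a non-catalytic relative that supports lysyl hydroxylation, fell 1.82-fold (adjusted p = 0.0050), and the collagen galactosyltransferase gene Colgalt1 was 1.21-fold higher (adjusted p = 0.036), turning sign with poly-A scaling (-0.16). Its call ended when NSCL61 array 1, NSCL61 array 2 or NSCL61-sox11 array 2 was left out (adjusted p = 0.23, 0.23 and 0.064).

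All 3 genes of propeptide removal above the filter passed, 1 up and 2 down (100% called, against 19.2% of all genes). A further 3 lay below the filter, among them the tolloid-like proteinase gene Tll1 (1.20, limma adjusted p = 0.0061 in the fit of all probe sets). Bmp1, the proteinase that removes the C-terminal propeptides of fibrillar collagens and also acts on pro-lysyl oxidase, was at 8.64 and 8.91 in NSCL61-sox11 against 10.04 and 10.26 in NSCL61. It fell 2.59-fold (log2 difference -1.38, SE 0.12, limma adjusted p = 0.0012). Its enhancers differed, as Pcolce rose 1.41-fold (adjusted p = 0.0029) and Pcolce2 fell 1.63-fold (adjusted p = 0.0058). The Pcolce2 call ended when NSCL61 array 1 or 2 was left out (adjusted p = 0.053 and 0.056), and that of Pcolce with either control scaling (adjusted p = 0.85 and 0.17).

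Of 11 fibril and network organisers tested, 5 rose, 1 fell and 5 did not pass (54.5% called, against 19.2% of all genes). Fn1, the fibronectin on which collagen fibrils assemble, was at 11.87 and 12.04 in NSCL61-sox11 against 10.31 and 10.64 in NSCL61, a rise of 2.79-fold (limma adjusted p = 0.00086). The small proteoglycan gene Bgn rose 2.09-fold (adjusted p = 0.0068), and Thbs1, a thrombospondin, fell 1.60-fold (adjusted p = 0.040), a call that ended when NSCL61 array 2 or NSCL61-sox11 array 1 was left out (-0.40 and -0.60, adjusted p = 0.10 and 0.063). Postn, which promotes Lox activity through Bmp1, was at 8.27 and 10.59 in NSCL61-sox11 against 5.69 and 6.50 in NSCL61. Its call (3.33, limma adjusted p = 0.023) ended when NSCL61 array 1 or 2 was left out (adjusted p = 0.12 and 0.068), and without NSCL61-sox11 array 2 the difference was 2.17.

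Of 8 collagen receptor genes tested, 2 rose and 6 did not pass. That was 25% called, near the 19.2% of all genes. Ddr2, a receptor kinase for fibrillar collagen, was at 9.18 and 9.08 in NSCL61-sox11 against 7.93 and 8.14 in NSCL61, 2.14-fold higher (limma adjusted p = 0.0017). Mrc2, an uptake receptor for collagen, was 1.71-fold higher (adjusted p = 0.040), a call that ended when NSCL61 array 1 or NSCL61-sox11 array 2 was left out (0.49 and 0.66, adjusted p = 0.14 and 0.080). With poly-A scaling Bgn, Ddr2 and Mrc2 lost their calls. Of 7 genes of collagen breakdown tested, 0 passed with limma.

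Markers of other cell types moved beside these members. Of 12 fibroblast and meningeal markers, 5 were above the filter and 3 of these rose: Pdgfrb (5.04-fold), Prrx1 (1.88-fold) and Foxc1 (log2 difference 0.58). Dcn (0.36) and Twist1 (-0.09) did not pass. That was 60% of those tested called, against 19.2% of all genes. The Foxc1 call ended when NSCL61 array 1, NSCL61 array 2 or NSCL61-sox11 array 2 was left out (adjusted p = 0.18, 0.096 and 0.059), and those of Foxc1 and Prrx1 with poly-A scaling. The mean level of this list was 6.38 and 6.47 on the NSCL61-sox11 arrays against 5.92 and 6.10 on the NSCL61 arrays, and Lum, Thy1, Islr, Aldh1a2, Slc22a6, Foxd1 and Tbx18 were below the filter. Tbx18 differed by 0.70 when every probe set was fitted (limma adjusted p = 0.019). Of 10 mural cell markers, Rgs5 (3.85-fold) and Acta2 (3.32-fold) rose and Anpep fell. The other 5 tested did not pass: Notch3 (0.31), Tagln (0.12), Des (0.07), Abcc9 (-0.03) and Cspg4 (-0.07). That was 37.5% of the 8 tested called, against 19.2% of all genes. The mean levels of the list were 6.13 and 6.23 in NSCL61-sox11 against 5.79 and 5.84 in NSCL61, with the largest differences in Rgs5 and Acta2. Kcnj8 and Vtn were below the filter. The Anpep call (-0.59) ended when NSCL61 array 1, NSCL61 array 2 or NSCL61-sox11 array 1 was left out (adjusted p = 0.081, 0.16 and 0.081). Of the endothelial, microglial and blood, and chondrocyte markers, none of 4, 1 and 3 above the filter passed. Of 3 Schwann and crest markers, Pmp22 rose 4.03-fold, while Sox10 (-0.20, limma adjusted p = 0.26) and Foxd3 (-0.10, adjusted p = 0.69) did not pass. The part of these markers in the collagen differences was not tested.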

How the data were processed

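RNA from 2 samples per line was measured on Affymetrix M430_2 arrays after biotin labelling, per the labels' protocols. The authors deposited 1 processed value per array for each of 45101 probe sets, taken here as log2 expression from the range of 2.13 to 14.62. How they summarised and normalized the log2 values before they were deposited, and in which log base, was not given in the sources used here. No further scaling was applied.

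Gene names came from GEO's annotation of the platform, and probe sets with several symbols (932) or none (9160) were given no gene. Leprel1 was matched to P3h2 as a synonym in the gene table of assembly GRCm38.p6. Control probe sets (64) were left out, and the brightest 60% of the rest entered a linear model per probe set (limma 3.58.1, R 4.3.3, empirical Bayes moderation with an intensity trend, two-sided p-values adjusted by Benjamini-Hochberg over 27022 probe sets), with 2 residual degrees of freedom and 6.36 after moderation. A gene is its probe set with the highest mean. The arrays correlated at r = 0.994 within NSCL61-sox11, 0.995 within NSCL61 and 0.968 to 0.972 between the lines, across probe sets. Their number limits the precision.

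Every member was accounted for, each called member was given per array, and up to 4 called genes of each other pathway list with the largest change were named. Members, lists and tests were chosen with earlier results of these data known. The fit was also run on simulated arrays with independent errors drawn from its own variance model. That run cannot show how the calls behave where same-numbered arrays deviate together. Alternatives changed the level filter, scaling, probe set choice, variance trend and replicate block, or left out an array. Figures were drawn with matplotlib 3.10.9.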

Additional observations from a re-analysis of the deposited data

How the results depend on the processing

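Of 21 members that passed the test, 9 kept their call and direction under each of up to 14 alternatives and 12 lost the call under at least 1. Main counts were 11 collagens, 10 enzymes and 2510 genes in all. With arrays left out in turn, 5 to 13 collagens, 6 to 10 enzymes and 908 to 2692 genes were called. Poly-A control scaling called 6 collagens (4 up, 2 down) and 1224 genes (279 up, 945 down, against 1308 up and 1202 down), and hybridisation control scaling called 702 genes up and 2336 down. Both shifts gave 54044 moderated degrees of freedom, so calls there rest on a spread common to genes of like level. Leaving out probe sets whose names end in _x_at, _s_at or _a_at called 7 collagens, with 22 tested. With poly-A scaling the signs of the called genes Crtap (-0.19), Plod3 (-0.091), Serpinh1 (-0.13) and Colgalt1 (-0.16) turned, Nid1 (0.426) lay within the shift of -0.431, and the uncalled Col4a5, Col11a2, Col20a1, Loxl3 and Plod1 turned too; causes beyond this common shift were not tested.

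The lines share the replicate numbers 1 and 2, which no label says mark a shared culture or day. Across probe sets, the array 2 minus array 1 differences of the lines correlated at r = 0.41. With the replicate block, with 40.2 moderated degrees of freedom, 15 collagens, 12 enzymes and 4830 genes were called, no called member lost its call, and Col3a1, Col4a5, Col7a1, Col18a1, Loxl3 and P3h1 gained one. Where an array was left out, the lone array of its line was assumed to vary like the other line's arrays. Genes below the level filter entered only the fit of all probe sets, and 2 arrays a line limit every interval.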

Other observations

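The collagens varied more between arrays of the same line than most genes. The median SD between the arrays of a line was 0.20 log2 units for the 27 collagens tested and 0.13 for the 14 enzymes, against 0.09 over all 13084 genes. It was 0.69 for the 3 collagen VI genes tested. In both lines array 2 lay above array 1 for 13 of the 27 collagens and below it for 5, against 3865 and 4220 of all genes. Among them, Col6a3 was 1.69 higher on array 2 than on array 1 of NSCL61-sox11 and 1.05 higher in NSCL61, while its lines differed by -0.12. The collagenase gene Mmp13, which degrades fibrillar collagen, was at 4.79 and 6.79 in NSCL61-sox11 and 4.57 and 6.73 in NSCL61.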
